A study of Mus musculus with 16 samples.

Results

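The genes described here encode 10 acute phase proteins of the liver: the serum amyloid A genes Saa1, Saa2, Saa3 and Saa4, the orosomucoid genes Orm1, Orm2 and Orm3, haptoglobin (Hp), serum amyloid P (Apcs) and lipocalin 2 (Lcn2). They were chosen by gene symbol, and all 10 of 10 were found among the 30142 genes with a probe set of a single symbol, each with 1 probe set. Total RNA of mouse liver was hybridised to 16 Affymetrix arrays, 4 per group. The groups were Ppara fl/fl livers after a sham operation, Ppara fl/fl livers after partial hepatectomy (PHx), Ppara△Hep livers after sham and Ppara△Hep livers after PHx. PHx removes part of the liver and sets off regrowth of the remnant. All livers were taken at 12 h, a time the labels tie to the fat that collects in the remnant. Ppara encodes the fatty acid receptor PPARα. The labels treat the floxed but intact Ppara fl/fl mice as WT, and describe Ppara△Hep as its disruption in hepatocytes. What drives the deletion, and the strain, sex and age of the mice, are not stated in these sources. The sham livers had surgery too, so each PHx difference below is between 2 operations. Each array's title carries a number of its own, but the labels do not say whether it stands for a mouse. The p-values thus measure the spread among arrays, some of which may be technical.

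The acute phase response is the change in plasma protein output that follows injury or infection. Kupffer cells and other macrophages release interleukins, and in hepatocytes these act through STAT3, C/EBP and NF-kB factors on the genes of secreted proteins. Serum amyloid A proteins travel on high density lipoprotein, haptoglobin binds free haemoglobin, lipocalin 2 withholds iron from bacteria by binding their siderophores, and orosomucoids carry drugs and lipids in plasma. Serum amyloid P is a pentraxin and a main acute phase reactant of the mouse.

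Both gene families lie in tight clusters of copies. On chromosome 7 the RefSeq order is Saa3, Saa4, a pseudogene (Saa-ps), Saa1 and Saa2, with the non-coding gene Gm31882 between Saa3 and Saa4. On chromosome 4 the order is Orm1, a pseudogene (Gm11212), Orm3 and Orm2. RefSeq windows from 250 bases before to 50 after a transcript start (build GRCm38.p6) were given for 8 of the 10 genes, without Orm1 and Hp. That start is the outer end of the annotated gene for 5 of the 8, and lies 201 bases inside it for Saa1, 89 for Orm3 and 3939 for Saa3. Those of both families are printed 5′ to 3′ on the gene's strand to show how alike the copies are. Capitals mark matches, on either strand, to the C/EBP motif TTGCNNAA and to an NF-kB motif (GG, 3 bases of any kind, TTTCC), both picked with the members known. The windows are chr7:46742931-46743230 (minus strand) for Saa1, chr7:46751583-46751882 (plus) for Saa2, chr7:46715627-46715926 (minus) for Saa3 and chr7:46732554-46732853 (minus) for Saa4, then chr4:63362199-63362498 (plus) for Orm2 and chr4:63355908-63356207 (plus) for Orm3.
Saa1: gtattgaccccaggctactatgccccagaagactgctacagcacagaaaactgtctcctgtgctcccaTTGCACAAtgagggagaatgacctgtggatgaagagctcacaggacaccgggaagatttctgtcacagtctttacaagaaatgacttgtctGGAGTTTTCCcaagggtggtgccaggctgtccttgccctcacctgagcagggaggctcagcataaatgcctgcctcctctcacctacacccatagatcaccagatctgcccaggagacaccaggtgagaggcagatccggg
Saa2: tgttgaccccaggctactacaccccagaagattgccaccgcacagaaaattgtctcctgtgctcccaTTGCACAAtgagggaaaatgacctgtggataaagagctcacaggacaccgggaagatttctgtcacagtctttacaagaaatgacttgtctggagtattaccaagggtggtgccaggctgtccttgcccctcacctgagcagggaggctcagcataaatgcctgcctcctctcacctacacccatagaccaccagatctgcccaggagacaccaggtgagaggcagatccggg
Saa3: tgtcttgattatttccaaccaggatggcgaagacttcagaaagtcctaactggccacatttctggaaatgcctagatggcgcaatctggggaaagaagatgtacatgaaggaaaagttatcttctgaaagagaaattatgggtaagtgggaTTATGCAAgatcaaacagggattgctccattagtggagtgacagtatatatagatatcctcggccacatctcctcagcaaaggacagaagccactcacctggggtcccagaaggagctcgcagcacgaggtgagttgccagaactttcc
Saa4: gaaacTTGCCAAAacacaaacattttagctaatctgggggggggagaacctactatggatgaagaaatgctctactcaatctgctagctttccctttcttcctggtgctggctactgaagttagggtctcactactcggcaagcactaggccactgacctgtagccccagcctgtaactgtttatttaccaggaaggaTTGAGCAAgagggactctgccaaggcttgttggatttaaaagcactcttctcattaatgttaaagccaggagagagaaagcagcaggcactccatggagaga
Orm2: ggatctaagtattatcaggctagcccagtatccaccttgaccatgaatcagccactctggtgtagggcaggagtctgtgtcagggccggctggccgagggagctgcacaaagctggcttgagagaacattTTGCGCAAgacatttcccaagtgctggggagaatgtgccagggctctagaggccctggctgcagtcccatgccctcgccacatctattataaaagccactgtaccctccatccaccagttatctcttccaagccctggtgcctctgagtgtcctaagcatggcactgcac
Orm3: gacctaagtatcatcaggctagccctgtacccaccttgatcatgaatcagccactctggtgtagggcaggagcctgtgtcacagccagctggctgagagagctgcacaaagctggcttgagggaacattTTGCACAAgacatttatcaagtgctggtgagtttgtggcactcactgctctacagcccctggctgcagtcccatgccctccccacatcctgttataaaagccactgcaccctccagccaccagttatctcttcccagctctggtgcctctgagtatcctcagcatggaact

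The windows of Saa1 and Saa2, which face away from each other on the chromosome, were 96.0% identical (287 of 299 aligned positions). Those of Orm2 and Orm3 were 89.2% identical (263 of 295). Saa3 and Saa4 stood further off, at 65.1% and 61.6% identity to Saa1 and 63.2% to each other. TTGCNNAA occurred in 7 of the 8 windows, all but that of Apcs, against 10.8% of the 32851 mouse windows in the same table. Saa4 held 2 matches and the other 6 held 1. The NF-kB motif occurred in Saa1, from position -91 to -82 relative to that start, and in no other of the 8, against 5.48% of all windows. The STAT motif TTCNNNGAA occurred in Apcs alone of the 8 (8.30% of all windows), and TATAAA in Orm2 and Orm3 (13.6%). A match describes the letters only, and a missing match says nothing about a factor's binding.

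The copies may also limit what a probe set can tell apart. Over the 16 arrays the probe sets of Saa1 and Saa2 correlated at r = 0.979, and at 0.974 once each group's mean was taken off. A correlation does not show that probes are shared, and no probe sequence was examined. Their values thus cannot be assigned to 1 of the 2 genes with certainty. Orm2 and Orm3 correlated at only 0.14 (0.016 with group means off), Orm1 and Orm3 at 0.36 (0.20) and Orm1 and Orm2 at 0.51 (0.72). Without the probe sequences the same caution applies to the Orm copies.

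Every array value is a log2 level made by RMA, which scales the arrays to each other. Disruption of the target was checked first: Ppara stood at 6.45 to 7.02 on the sham fl/fl arrays, 6.05 to 6.43 on the sham Ppara△Hep arrays, 5.68 to 7.24 on the PHx fl/fl arrays and 4.70 to 6.26 on the PHx Ppara△Hep arrays. Its genotype difference was -0.50 after sham (limma adjusted p = 0.681) and -1.17 after PHx (0.326), and which exons the probes read is not known, so this does not settle the labels. The hepatocyte markers fit a liver sample, with a mean log2 level of 10.43 in both sham groups and 10.31 in both PHx groups. Positive control probes had a median of 5.95 ± 0.09 on the sham arrays and 5.59 ± 0.12 on the PHx arrays (SD, n = 8), and that of all genes was 2.68 ± 0.05 and 2.76 ± 0.03. The highest value of an array was 12.05 ± 0.04 after sham and 11.93 ± 0.05 after PHx. The median of the ERCC control probes ran from 1.71 to 1.88 after sham and from 1.51 to 1.69 after PHx. That of the antigenomic background probes ran from 1.19 to 1.29 and from 0.97 to 1.09. Both thus separated the sham from the PHx arrays, while the medians of the negative controls overlapped (1.81 to 2.01 and 1.94 to 2.12). The part of these shifts in the differences below was not tested directly, but 3 other scalings of the arrays were run and are given where they change a result.

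At 12 h after PHx, 5 of the 10 acute phase genes were lower and 1 was higher than after sham, the same 6 genes in both genotypes. Saa4, Apcs and Saa3 fell most, Orm2 and Hp fell less, and Lcn2 rose. Saa1, Saa2, Orm1 and Orm3 did not pass the test in either genotype. Among all genes, 32.7% passed in fl/fl livers, 20.8% lower and 11.9% higher, and 32.3% in Ppara△Hep livers, 17.5% lower and 14.8% higher. The median change of the 10 genes was -0.20 in fl/fl and -0.19 in Ppara△Hep livers on the log2 scale, beside -0.04 and 0.01 over all genes. All 10 lie well above the dim end of the arrays, and among the 14478 genes with a group mean of at least 3 the background was closer, with medians of -0.13 and -0.11 and 34.9% and 33.1% lower. Arrays of the 2 operations did not overlap for 5 of the 10 genes in fl/fl livers and 6 of 10 in Ppara△Hep livers, beside 32.0% of all genes in each genotype. In arrays simulated for the fl/fl comparison alone, log2 changes of 0.5 were called in 80% of cases and of 0.25 in 28%. The simulation changed a far smaller share of genes than the 32.7% that passed in fl/fl livers. The adjusted p depends on that share, so these rates do not give the sensitivity of the real comparison.

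**Figure D1:**
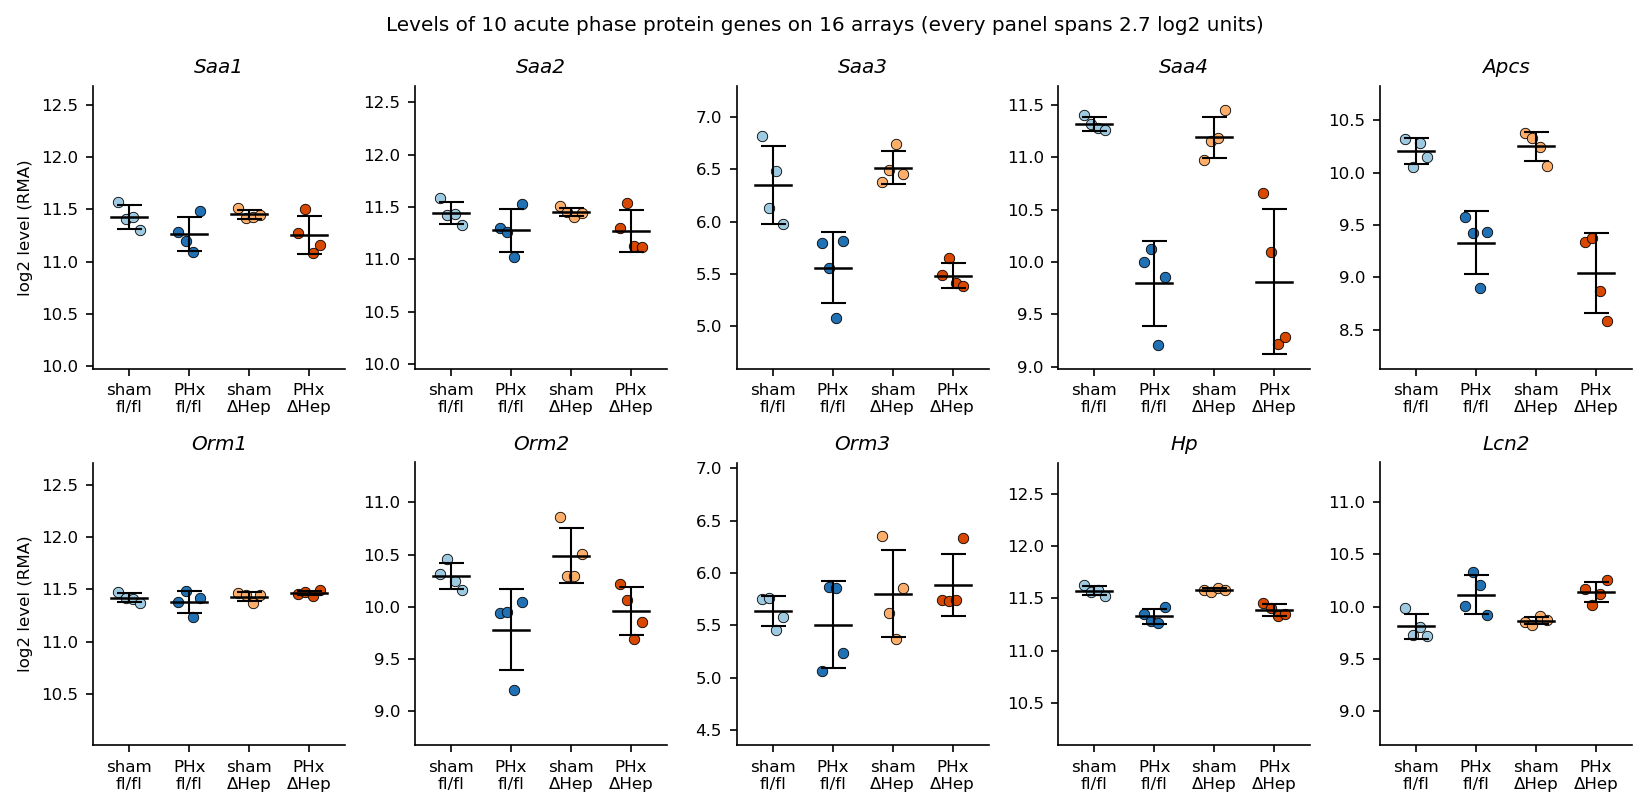
Log2 level of each of the 10 genes (y axis, every panel spanning 2.7 log2 units) on each of the 16 arrays, by group on the x axis, with points for arrays and a line with error bars for the group mean and SD (n = 4). Saa4, Saa3 and Apcs drop from sham to PHx with no overlap in either genotype, Lcn2 rises, and Saa1, Saa2 and Orm1 stay within a narrow band near the top of the scale.

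Saa4 is the serum amyloid A that is made in the resting liver and counts as largely constitutive. Its log2 level on the sham fl/fl arrays was 11.41, 11.32, 11.28 and 11.26, and on the PHx fl/fl arrays 10.001, 10.12, 9.21 and 9.86. On the sham Ppara△Hep arrays it was 10.97, 11.15, 11.19 and 11.45, and on the PHx Ppara△Hep arrays 10.66, 10.09, 9.21 and 9.28. Every PHx array thus lay below every sham array, and the PHx arrays were spread more widely than the sham arrays. The fall was 2.86-fold in fl/fl (log2 difference -1.52 ± 0.27 SE, limma adjusted p = 6.32e-04) and 2.60-fold in Ppara△Hep livers (-1.38 ± 0.27, 0.00117).

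Saa3 differs from the other copies in being made largely outside hepatocytes, in macrophages and fat. It was measured at 6.81, 6.13, 6.48 and 5.98 on the sham fl/fl arrays and at 5.79, 5.56, 5.08 and 5.81 on the PHx fl/fl arrays. The Ppara△Hep arrays read 6.38, 6.49, 6.74 and 6.45 after sham and 5.49, 5.65, 5.41 and 5.38 after PHx. The operations did not overlap in either genotype, although the gap in fl/fl livers, from 5.98 to 5.81, was small. The fall was 1.73-fold in fl/fl (-0.79 ± 0.18, limma adjusted p = 0.00355) and 2.05-fold in Ppara△Hep livers (-1.03 ± 0.18, 4.57e-04).

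Most markers of Kupffer cells and macrophages moved the same way as Saa3, and so did many of other liver cells. Of the 10 measured, 5 were lower after PHx in fl/fl and 8 in Ppara△Hep livers, and 0 were higher (limma adjusted p below 0.05). Their mean log2 level ran from 5.13 to 5.68 on the sham and from 4.79 to 5.14 on the PHx fl/fl arrays, and from 5.31 to 5.80 and from 4.72 to 5.17 on the Ppara△Hep arrays, with 0 of the 10 near the negative controls. Cd68 went the other way without passing, from 4.74 after sham to 5.39 after PHx in fl/fl and from 4.91 to 5.55 in Ppara△Hep livers. So did Marco (4.77 to 4.99 and 4.80 to 5.10). Of the sinusoidal endothelial markers 5 of 8 were lower and 1 higher in each genotype, of the stellate cell markers 4 of 7 were lower, and of the hepatocyte markers 4 of 10. Among genes with a group mean of at least 3, 34.9% were lower in fl/fl and 33.1% in Ppara△Hep livers, near the hepatocyte share. In whole tissue, fewer cells of a type and less RNA per cell cannot be told apart, and the part of these markers in the Saa3 result was not tested. Of the 5 adipocyte markers measured, Adipoq, Plin1, Lep and Retn were near the negative controls, and Fabp4, which macrophages and endothelium also make, was higher after PHx by 0.96 in fl/fl and 0.70 in Ppara△Hep livers.

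Saa1 and Saa2 encode the circulating acute phase forms. Their probe sets sat close to the top of each array, with 0.0299% to 0.136% of genes above them, and read between 11.02 and 11.59 on all 16 arrays. Saa1 was 11.57, 11.41, 11.42 and 11.30 on the sham fl/fl arrays and 11.28, 11.20, 11.10 and 11.48 on the PHx fl/fl arrays. On the Ppara△Hep arrays it was 11.52, 11.42, 11.43 and 11.45 after sham and 11.28, 11.50, 11.09 and 11.16 after PHx. Most PHx arrays were lower, but 1 in each genotype reached the sham range. The log2 difference of -0.16 in fl/fl (95% interval -0.36 to 0.03, limma adjusted p = 0.195) and of -0.19 in Ppara△Hep livers (-0.39 to 0.0018, 0.122) did not pass. Saa2 gave -0.16 (-0.38 to 0.06, 0.241) and -0.18 (-0.40 to 0.04, 0.195).
These calls moved with the scaling and with a single array. Under cyclic loess the fl/fl differences turned to 0.01 for both Saa1 and Saa2, while with array medians subtracted both were called lower in Ppara△Hep livers, by -0.32 (adjusted p = 0.00961) and -0.31 (0.0222). Both were also called lower there without PHx Ppara△Hep array 2, by -0.28 (0.0229) and -0.27 (0.0438). What part their closeness to the top of the arrays has in the small differences was not tested.

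Apcs fell in both genotypes. Its log2 level was 10.32, 10.05, 10.29 and 10.15 on the sham fl/fl arrays and 9.57, 9.43, 8.90 and 9.43 on the PHx fl/fl arrays. After sham the Ppara△Hep arrays read 10.38, 10.33, 10.24 and 10.06, and after PHx 9.34, 9.37, 8.87 and 8.58. No PHx array reached the lowest sham array. The fall was 1.83-fold in fl/fl (-0.87 ± 0.17, limma adjusted p = 0.00135) and 2.32-fold in Ppara△Hep livers (-1.21 ± 0.17, 7.89e-05). Saa3, Saa4 and Apcs stayed past the threshold in both genotypes under each of 26 alternative settings, with ranges of the log2 difference over both genotypes of -1.16 to -0.62, -1.66 to -1.18 and -1.34 to -0.67.

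Hp also sat near the top of the arrays (0.0299% to 0.119% of genes above it), with a small but tight fall. Its log2 level was 11.63, 11.56, 11.58 and 11.52 after sham and 11.35, 11.28, 11.27 and 11.42 after PHx in fl/fl livers. The Ppara△Hep arrays gave 11.58, 11.56, 11.60 and 11.58 after sham and 11.46, 11.41, 11.33 and 11.35 after PHx. All PHx arrays lay below all sham arrays. The mean of the arrays' highest values was also lower after PHx, and its part in the Hp fall was not tested. The fall was 1.18-fold (-0.24 ± 0.04, limma adjusted p = 8.40e-04) and 1.14-fold (-0.19 ± 0.04, 0.00390). Cyclic loess ended both calls, at -0.08 each (adjusted p = 0.240 and 0.225), the 1 of the 26 alternatives to do so.

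Of the 3 orosomucoid genes, Orm2 was the 1 that passed the test. Orm2 read 10.32, 10.45, 10.25 and 10.16 on the sham fl/fl arrays and 9.94, 9.95, 9.20 and 10.04 on the PHx fl/fl arrays. It read 10.85, 10.30, 10.30 and 10.51 on the sham Ppara△Hep arrays and 10.22, 10.07, 9.70 and 9.86 on the PHx Ppara△Hep arrays. Within each genotype the operations did not overlap, but the gaps were narrow and PHx fl/fl array 3 stood well below the rest of its group. Orm2 fell 1.43-fold in fl/fl (-0.51 ± 0.17, limma adjusted p = 0.0345) and 1.44-fold in Ppara△Hep livers (-0.53 ± 0.17, 0.0300).
This was the least stable of the 6 changes, past the threshold in 18 of the 26 alternative settings in fl/fl and 20 of 26 in Ppara△Hep livers. Quantile normalization left -0.22 (adjusted p = 0.390) and -0.24 (0.338), and cyclic loess -0.34 (0.160) and -0.38 (0.112). In fl/fl livers the call was lost without sham fl/fl array 1, 2 or 3 (0.0671, 0.0875 and 0.0610) and without PHx fl/fl array 3 (-0.32, 0.0960). It was also lost there with array weights (0.0525) and with the arrays of the 2 groups alone (0.0524). In Ppara△Hep livers it was lost without sham Ppara△Hep array 1 or 4 (0.0968 and 0.0592) and without PHx Ppara△Hep array 3 or 4 (0.0890 and 0.0738).

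Orm1, the orosomucoid with the probe set nearest the top of the arrays (0.0498% to 0.0962% of genes above it), ranged from 11.24 to 11.49 over all 16 arrays. Its log2 difference was -0.04 in fl/fl (95% interval -0.15 to 0.07, limma adjusted p = 0.578) and 0.04 in Ppara△Hep livers (-0.07 to 0.14, 0.622), although cyclic loess gave 0.15 (adjusted p = 0.0327) in the latter. Orm3 was far dimmer, with levels of 5.06 to 6.35 and a wide spread within groups. Its differences of -0.13 (-0.60 to 0.33, 0.674) and 0.09 (-0.38 to 0.55, 0.796) lay within that spread, and the fl/fl interval still allows a fall of the size of Orm2's.

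Lcn2 was the 1 member to rise. Its log2 level was 9.99, 9.73, 9.81 and 9.72 after sham and 10.002, 10.33, 10.21 and 9.92 after PHx in fl/fl livers. Ppara△Hep arrays read 9.85, 9.83, 9.91 and 9.87 after sham and 10.17, 10.02, 10.12 and 10.26 after PHx. In fl/fl livers 1 PHx array, at 9.92, fell within the sham range, while in Ppara△Hep livers the operations did not overlap. The rise was 1.24-fold (0.30 ± 0.09, limma adjusted p = 0.0136) and 1.21-fold (0.27 ± 0.09, 0.0233).
The rises under quantile normalization were 0.52 and 0.53, and under cyclic loess 0.48 and 0.43. With array medians subtracted the Ppara△Hep rise shrank to 0.14 (adjusted p = 0.152), a scaling that moved the median change of all genes there from 0.01 to -0.12. The Ppara△Hep call was also lost without sham array 2 (0.0552) or PHx array 4 (0.0738), and the fl/fl call with only the arrays of the 2 groups in the fit (0.0503).
Neutrophils store lipocalin 2 in their granules, so their markers were read beside it. The mean log2 level of the 12 markers ran from 2.41 to 2.75 on the sham and 2.33 to 3.20 on the PHx fl/fl arrays, and from 2.38 to 2.41 and 2.48 to 2.65 on the Ppara△Hep arrays. Between 9 and 11 of the 12, with the granule genes Mpo, Elane, Ltf, Ngp and Camp among them in each group, were within 1 log2 unit of the negative controls. After PHx 1 marker was higher (Cxcr2) and 1 lower (Mpo) in fl/fl, and 1 higher (Cxcr2) in Ppara△Hep livers.

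**Figure D2:**
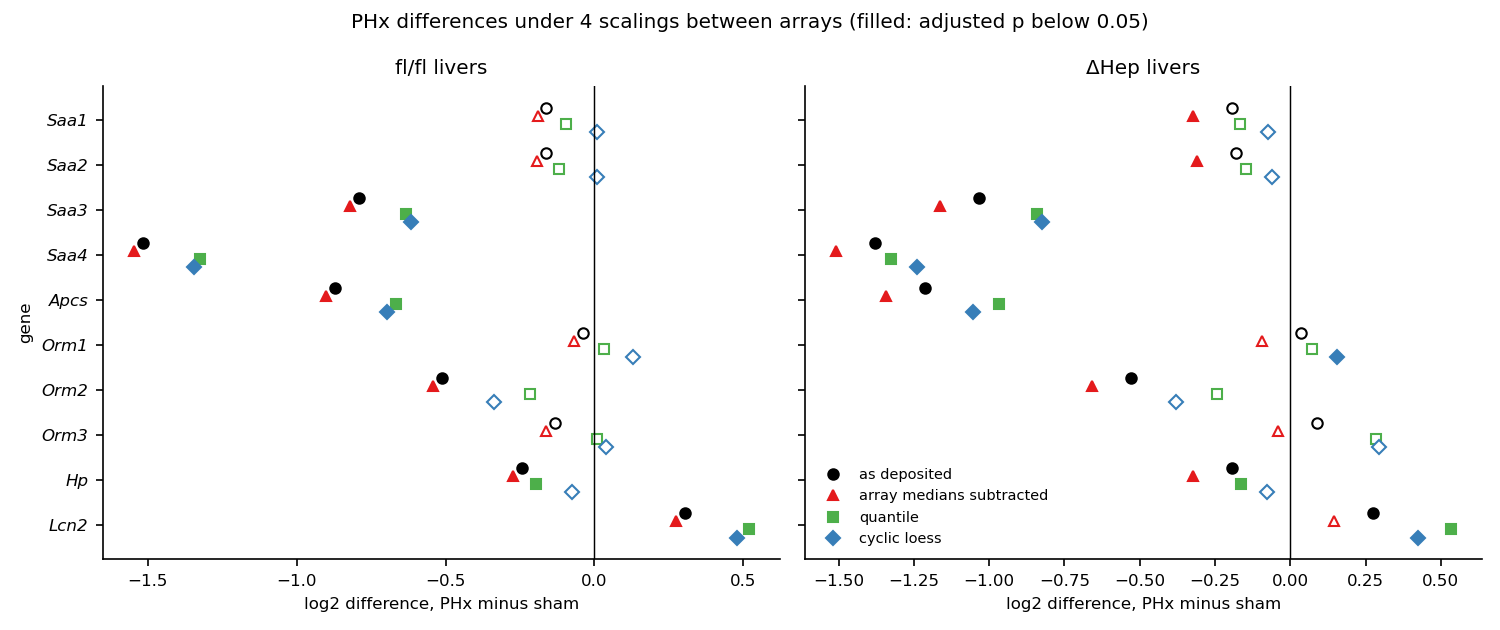
Log2 difference of each gene between PHx and sham (x axis) in fl/fl and Ppara△Hep livers under 4 scalings of the arrays, the deposited values and 3 others, with filled symbols for adjusted p below 0.05. Saa4, Apcs and Saa3 stay filled and left of 0 under all 4, Hp opens under cyclic loess and Orm2 under cyclic loess and quantile normalization, and the fl/fl differences of Saa1 and Saa2 cross to 0.01 under cyclic loess.

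The numbers in the array titles fall into 4 runs, and 1 of the 4 holds arrays of both operations. What the numbers count is not stated, and the check that follows was chosen after the data were seen. The only PHx array in a run with sham arrays is PHx fl/fl array 2. No PHx Ppara△Hep array shares a run with a sham array. Both PHx comparisons under the block thus hang on that single array, and the block is no separate check of each genotype. With the runs as a block, which leaves 9 residual degrees of freedom, Saa4 (-1.28, limma adjusted p = 0.0102, and -1.22, 0.0433) and Apcs (-0.74, 0.0272, and -1.12, 0.0127) still passed in fl/fl and Ppara△Hep livers. Saa3 no longer passed, at -0.80 (0.111) and -1.09 (0.0989), nor did Orm2, at -0.32 (0.5001) and -0.33 (0.618). Hp and Lcn2 passed in fl/fl livers, at -0.29 (0.0279) and 0.49 (0.0244), and missed the threshold in Ppara△Hep livers, at -0.27 (0.105) and 0.53 (0.0526). In the run that holds both operations, PHx fl/fl array 2 stood beside sham fl/fl arrays 1 and 4. Its Saa4 level was 10.12 against 11.41 and 11.26, its Apcs level 9.43 against 10.32 and 10.15, and its Saa3 level 5.56 against 6.81 and 5.98. Likewise Hp was at 11.28 against 11.63 and 11.52, Orm2 at 9.95 against 10.32 and 10.16, and Lcn2 at 10.33 against 9.99 and 9.72, so each of the 6 lay on the side of its reported change.

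The genotypes were then compared, which asks whether hepatocyte PPARα bears on these genes. After sham, 0 of the 10 passed (limma; 0 at unadjusted p below 0.05 too), with log2 differences of Ppara△Hep minus fl/fl from -0.12 for Saa4 to 0.19 for Orm2. After PHx again 0 of 10 passed (0 unadjusted), with differences from -0.29 for Apcs to 0.38 for Orm3. Adjusted p was at least 0.770 after sham and 0.745 after PHx. Few genes at all passed these comparisons, 0.0133% of those tested after sham and 0.143% after PHx. At unadjusted p below 0.05 there were 9.26% of all genes after sham and 7.47% after PHx, so 0 of 10 is little below that background. Arrays of the 2 genotypes overlapped for each of the 10 genes after either operation, while they did not for 6.8% of all genes after sham and 3.73% after PHx.

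The intervals show what these arrays can bound. For Hp the 95% interval of the genotype difference after PHx was -0.04 to 0.15, and for Saa1 after sham -0.17 to 0.22. For Saa4, whose PHx arrays were widely spread, it was -0.55 to 0.58 after PHx, so a change of nearly 1.5-fold in either direction would remain within it. That of Apcs ran from -0.65 to 0.07 and that of Orm3 from -0.08 to 0.85.

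The PHx change itself was compared between genotypes by the interaction term. It passed for 0 of the 10 genes (limma; 0 at unadjusted p below 0.05), and 0% of all genes passed, with 3400 of the 30142 below an unadjusted p of 0.05. Estimates ran from -0.34 for Apcs (95% interval -0.85 to 0.17) to 0.22 for Orm3. For Saa4 the estimate was 0.14 (-0.66 to 0.94) and for Saa3 -0.24 (-0.77 to 0.29). A p that misses the threshold does not show equal changes, and the intervals span from 0.134 log2 units either side for Hp to 0.801 for Saa4.

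**Figure D3:**
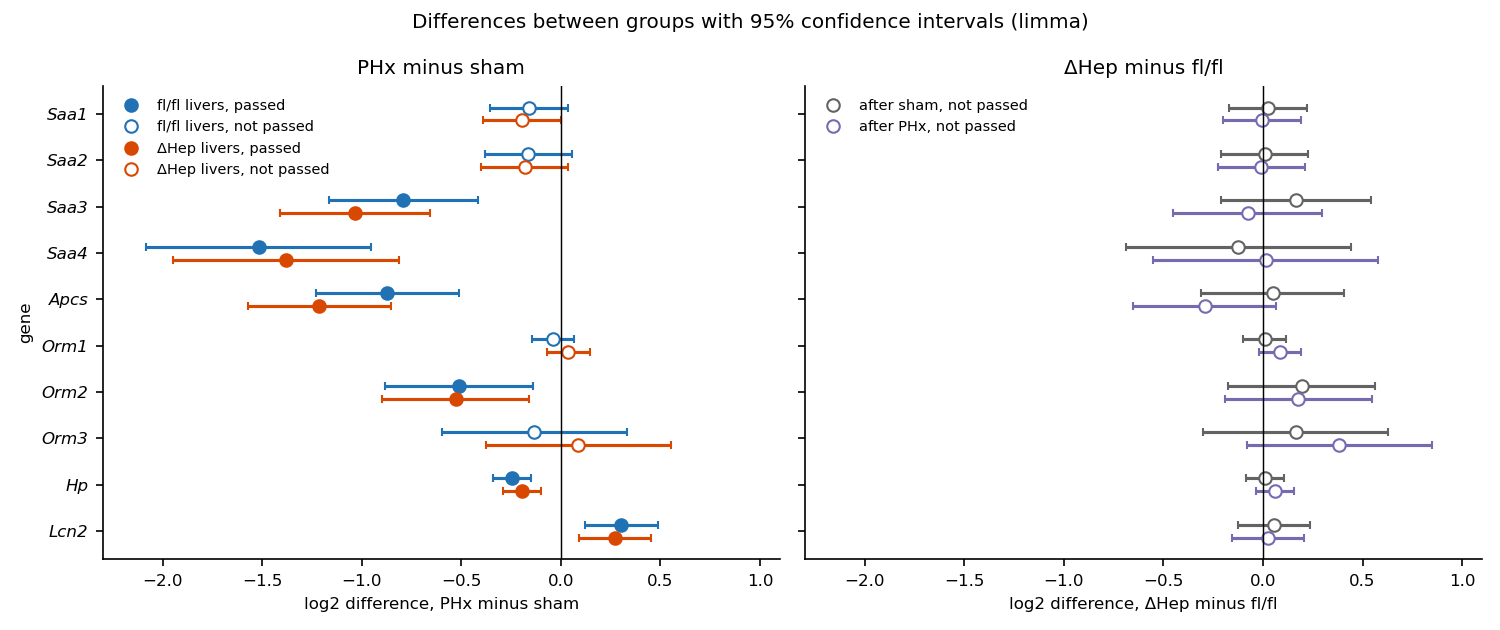
Log2 differences of the 10 genes (x axis) with 95% confidence intervals from limma, for PHx minus sham in each genotype and for Ppara△Hep minus fl/fl after each operation. The PHx intervals of Saa3, Saa4, Apcs, Hp, Orm2 and Lcn2 exclude 0 in both genotypes, and each of the genotype intervals crosses 0.

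Other positive acute phase genes, a list of 26 of which 24 were measured, split in both directions. In fl/fl livers 3 were higher and 9 lower after PHx (background 11.9% and 20.8%), with a median of -0.10, and in Ppara△Hep livers 2 were higher and 8 lower (14.8% and 17.5%), with a median of -0.06. Among genes with a group mean of at least 3 the background was 10.3% higher and 34.9% lower in fl/fl livers. In Ppara△Hep livers it was 11.3% and 33.1%, so the list's lower calls lay near it in both genotypes. Cyclic loess moved the list's counts to 3 higher and 5 lower, and to 5 higher and 4 lower, with medians of 0.07 and 0.06. Over all 30142 genes it gave 7512 and 8019 calls, 56.7% and 53.7% of them higher. Hamp, the gene of the iron hormone hepcidin, rose by 1.38 ± 0.27 in fl/fl (SE, limma adjusted p = 0.00162) and by 1.25 ± 0.27 in Ppara△Hep livers (0.00291). Crp, a pentraxin relative of Apcs that responds weakly in mice, fell by 1.25 ± 0.28 in fl/fl (0.00398) and by 0.81 ± 0.28 in Ppara△Hep livers (0.0405).
Cd14, a co-receptor of bacterial endotoxin, rose by 1.86 ± 0.63 in fl/fl livers (adjusted p = 0.0346), with PHx arrays from 3.57 to 6.70, and lost that call without any 1 of the 4 sham arrays or without PHx array 2 or 3 (0.0512 to 0.110). The Ppara△Hep difference was 1.69 (0.0527). The endotoxin carrier gene Lbp fell by 0.96 ± 0.16 in fl/fl (4.99e-04) and 1.08 ± 0.16 in Ppara△Hep livers (1.65e-04), and Lrg1, which encodes a leucine-rich plasma glycoprotein, by 0.49 ± 0.09 (0.00132) and 0.98 ± 0.09 (1.53e-06). The fibrinogen genes Fga, Fgb and Fgg, whose products form the clot, gave -0.05, -0.10 and -0.10 in fl/fl and 0.04, 0.01 and 0.01 in Ppara△Hep livers and did not pass. Their direction followed the scaling: Fgb and Fgg were called lower in both genotypes with array medians subtracted (-0.13 in fl/fl and -0.12 in Ppara△Hep livers for each), and Fga (0.15) and Fgg (0.12) higher in Ppara△Hep livers under cyclic loess. The protease inhibitor gene Serpina3n, at -0.02 and -0.08, did not pass, but was called lower in Ppara△Hep livers with medians subtracted (-0.21, 0.0280).

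Genes of plasma proteins that fall in an acute phase response gave calls that moved with the scaling. Of the 10 measured, 1 was lower and 0 higher after PHx in fl/fl livers (background 20.8% and 11.9%), the iron carrier gene Trf (-0.13 ± 0.04, limma adjusted p = 0.0223), a call that cyclic loess turned to 0.04 (0.615). In Ppara△Hep livers 0 passed (limma), beside 32.3% of all genes. At unadjusted p below 0.05 there were 2 of the 10, beside 42.3% of all genes. With array medians subtracted 3 were lower in fl/fl and 7 in Ppara△Hep livers, while quantile normalization gave 3 and 2 higher and 0 lower. Over all 30142 genes, medians subtracted gave 10894 and 13748 calls, 28.0% and 16.5% of them higher. Quantile normalization gave 10128 and 9695, 34.3% and 36.1% of them higher. Alb, the gene of albumin, gave -0.12 (0.0533) and 0.02, and the thyroxine carrier gene Ttr -0.10 and -0.08. Both were among the genes called lower in Ppara△Hep livers with medians subtracted, at -0.11 (0.0474) and -0.21 (0.00822).

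Among the upstream regulators 24 of 26 genes were measured, and after PHx 1 was higher and 8 lower in fl/fl, 0 higher and 5 lower in Ppara△Hep livers. The lower calls, 8 and 5 of 24, stand beside 20.8% and 17.5% of all genes. Among genes with a group mean of at least 3, 34.9% were lower in fl/fl and 33.1% in Ppara△Hep livers. The counts of these regulators are not an excess of falls over that background. Under cyclic loess 4 were lower in fl/fl and 3 in Ppara△Hep livers, and with medians subtracted 9 and 8. Over all 30142 genes, cyclic loess gave 7512 and 8019 calls, 56.7% and 53.7% of them higher. Medians subtracted gave 10894 and 13748, 28.0% and 16.5% of them higher. Cebpa, a C/EBP factor that maintains hepatocyte gene expression, fell by 1.33 ± 0.24 (limma adjusted p = 7.03e-04) and 1.53 ± 0.24 (2.02e-04). Nr3c1, the gene of the glucocorticoid receptor, fell by 0.65 ± 0.11 (5.71e-04) and 0.73 ± 0.11 (2.06e-04). Il6ra, which encodes the ligand-binding chain of the interleukin-6 receptor, fell by 0.55 ± 0.14 in fl/fl livers (0.00838), a call lost under cyclic loess (0.0744) and quantile normalization (0.0506), and gave -0.37 (0.0540) in Ppara△Hep livers, where medians subtracted made it a call (-0.50, 0.0102). Bcl3, an NF-kB cofactor, fell by 0.77 ± 0.22 in fl/fl livers (0.0152, and 0.0660 under cyclic loess) and gave -0.53 (0.0778) in Ppara△Hep livers. Il1rap, the accessory chain of the interleukin-1 receptor, fell by 0.47 ± 0.10 in fl/fl (0.00326) and 0.54 ± 0.10 in Ppara△Hep livers (0.00125).
The acute phase transcription factor gene Stat3 gave -0.04 and 0.02, its feedback inhibitor Socs3 -0.51 (adjusted p = 0.0675) and -0.20, Cebpb -0.09 and 0.20 and Cebpd 0.32 and 0.25, none of which passed. Socs3 was called lower in fl/fl livers with medians subtracted (-0.54, 0.0411) and when sham fl/fl array 2, sham fl/fl array 4 or PHx Ppara△Hep array 4 was left out (0.0361 to 0.0478), and Cebpb higher in Ppara△Hep livers under quantile normalization (0.41, 0.0456). The cytokine gene Il6 itself, singled out after its values were seen, had group means of 0.93 to 1.26, below the 1.90 to 2.02 of the negative controls' median, with 1 PHx fl/fl array at 2.25.

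**Figure D4:**
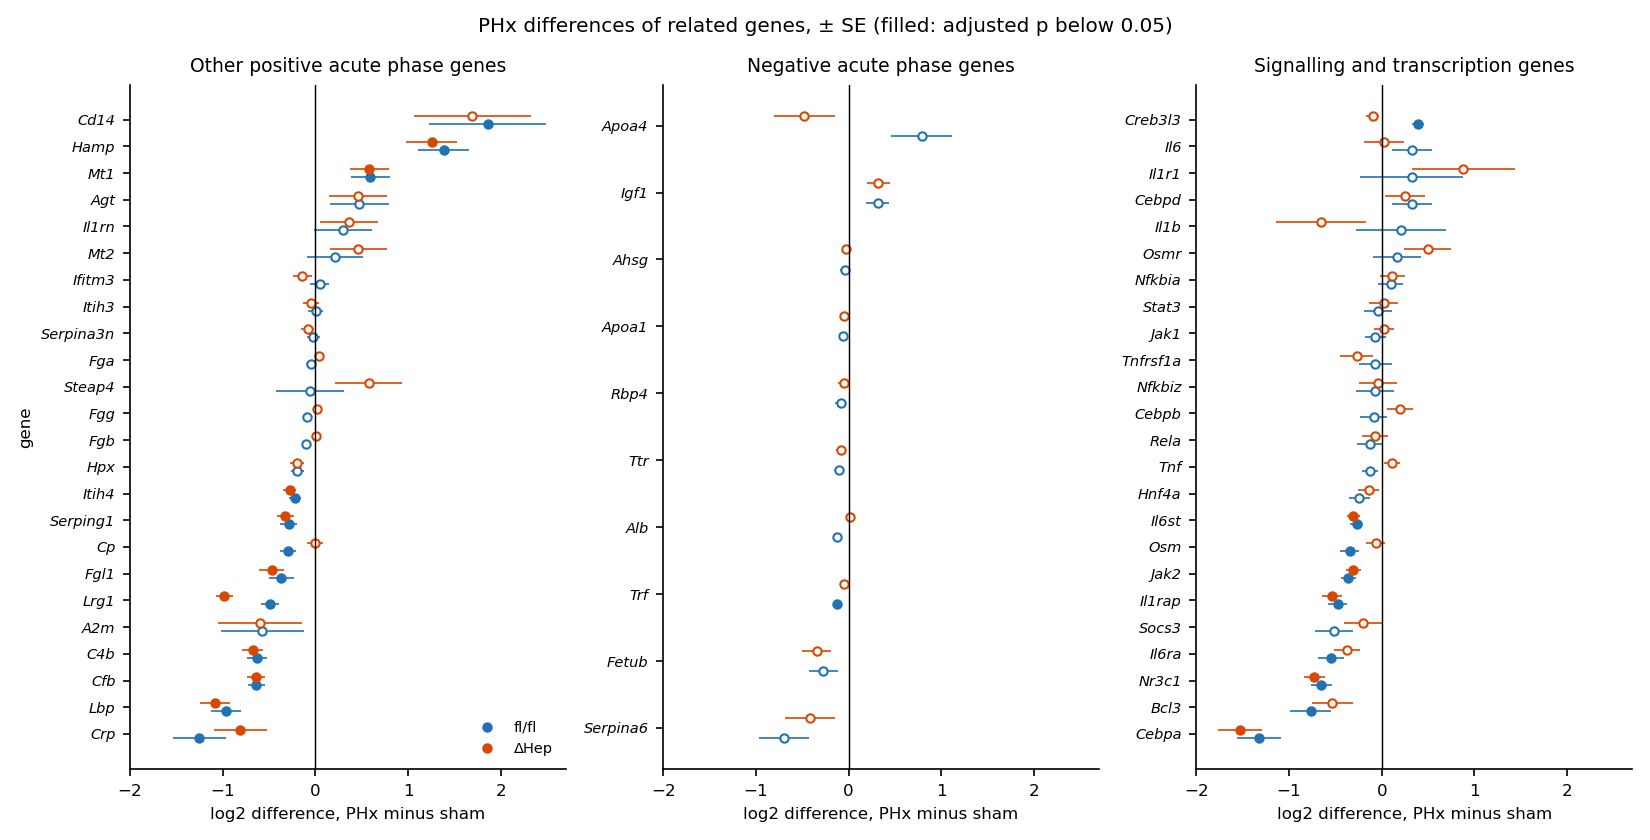
Log2 difference between PHx and sham (x axis, ± SE) for the measured genes of the 3 related lists in fl/fl and Ppara△Hep livers, filled where adjusted p is below 0.05. Hamp stands furthest right of the filled genes in Ppara△Hep livers, Cebpa lies furthest left in both genotypes, and the fibrinogen genes lie close to 0.

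Of these related lists, 1 gene passed a genotype comparison, Creb3l3 after PHx. After sham 0 passed. The genotypes' arrays did not overlap there for 3 of 24 positive genes, 3 of 10 that fall and 1 of 24 regulators (6.8% of all genes). Apoa4, of the genes that fall and singled out after its values were seen, was at 8.23 to 8.96 in fl/fl and 9.60 to 9.96 in Ppara△Hep livers. Under the alternatives at most 1 of the genes that fall was called higher after sham. Creb3l3 encodes CREBH, a membrane-bound transcription factor of the liver known to activate Apcs and Crp. After PHx its log2 level was 7.20, 7.37, 7.25 and 7.39 on the fl/fl arrays and 6.66, 6.54, 6.66 and 6.43 on the Ppara△Hep arrays, with no overlap (-0.73 ± 0.07, limma adjusted p = 6.51e-04). That call was lost with the arrays of the 2 groups alone (0.167). After sham the fl/fl arrays ran from 6.82 to 6.98 and the Ppara△Hep arrays from 6.55 to 6.81 (-0.24 ± 0.07, 0.403), and the interaction was -0.49 ± 0.10 (0.286), neither of which passed. Mean Creb3l3 went from 6.91 after sham to 7.30 after PHx in fl/fl livers, without overlap of the arrays. In Ppara△Hep livers it went from 6.67 to 6.57. Apcs and Crp themselves fell after PHx in both genotypes and did not pass in either genotype comparison. After PHx the mean of Apcs was 9.33 in fl/fl and 9.04 in Ppara△Hep livers, and that of Crp 7.99 and 8.18. A link of Creb3l3 to these 2 genes was not tested.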

How the data were processed

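Each value is the authors' deposited log2 level of a probe set on an array. The submitters' processing notes name RMA, a method of background correction, normalization between arrays and summary of probes. Which software ran it, and on which genome build, is not given in the sources used here. Of 72688 probe sets, 30604 have 1 symbol in the platform annotation, 2146 have several and 39938 are not listed. Symbols were updated through Entrez identifiers to RefSeq (827 changed). The 355 genes with several probe sets took the one with the highest mean over 16 arrays, leaving 30142 genes.

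Group differences were fitted in R 4.3.3 by limma 3.58.1 on the deposited values, with 1 mean per group over all 16 arrays (12 residual degrees of freedom), eBayes defaults and Benjamini-Hochberg adjustment over the 30142 genes. A gene passed, and is said to rise or fall, at adjusted p below 0.05. The 5 comparisons share groups and so are not independent. A change is PHx minus sham or Ppara△Hep minus fl/fl, and 26 alternative settings were run, plus 1 added after the data were seen. Arrays are numbered in sample order, which pairs nothing. Precision is limited by the 4 arrays of a group.

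The members, lists and motifs were chosen with earlier results of these data known. From each list the text names, per comparison, the 3 passing genes with the largest change, plus Fga, Fgb, Fgg, Serpina3n, Alb, Ttr, Il6ra, Socs3, Stat3, Cebpb, Cebpd, Nr3c1 and Ppara whatever their result. The steps were tested on simulated data, in which 200 of 30142 genes were changed and 11 false calls arose. Promoter windows are RefSeq's and were aligned with Biopython 1.88. Figures were drawn with matplotlib 3.10.9.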

Additional observations from a re-analysis of the deposited data

Results flagged for a closer look

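Single arrays stood apart from the rest of their group in 2 of the 40 sets of 4 arrays examined, a rate that chance alone gives (about 1 in 20). For Orm2, PHx fl/fl array 3 was at a log2 level of 9.20, while the other 3 were at 9.94 to 10.04. For Orm3, PHx Ppara△Hep array 4 was at 6.33, while the other 3 were at 5.74 to 5.75. PHx fl/fl array 3 was the lowest of its group for 8 of the 10 genes, as was sham fl/fl array 4, while sham fl/fl array 1 was the highest for 8. The lowest quality weight that limma gave any of the 16 arrays, 0.499, was that of PHx fl/fl array 3.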

How the results depend on the processing

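The count of the 10 genes called stayed at 4 to 6 in fl/fl and 5 to 7 in Ppara△Hep livers for PHx against sham under the 10 alternatives that kept each array, and at 5 to 6 and 4 to 8 when 1 array was left out. With the runs of title numbers as a block, chosen after the data were seen, it was 4 in fl/fl and 2 in Ppara△Hep livers, over 3897 and 2963 calls among all genes. Of the related genes, Crp, Cd14, Bcl3 and Trf lost their call in fl/fl livers and Hamp its call in Ppara△Hep livers under that block. It was 0 for both genotype comparisons and the interaction under each alternative run. The sign differed from the reported one in 63 of 1290 values of the 10 genes under the other 26 settings, 0 of them called in either. With array medians subtracted, Fgb (-0.12, adjusted p = 0.0166), Fgg (-0.12, 0.0192) and Alb (-0.11, 0.0474) were called lower in Ppara△Hep livers, as were Ttr, Serpina3n and Il6ra there and Fgb, Fgg, Alb and Socs3 in fl/fl livers, and under cyclic loess Trf turned to 0.039 (0.615) in fl/fl livers. The related positive list gave 2 higher and 12 lower in fl/fl, and 1 and 13 in Ppara△Hep livers, with medians subtracted. Over all genes, the share of calls that were higher moved from 36.5% to 56.7% (cyclic loess) or 28.0% (medians subtracted) in fl/fl, and from 45.8% to 16.5% (medians subtracted) in Ppara△Hep livers. With every probe set tested it was 56.4% and 62.6%, over 18505 and 18233 calls against 9868 and 9734, and with only genes at a group mean of at least 3 the calls were 6544 and 6418. The sham genotype comparison called 4 genes, but 24 with array weights, 38 with its 2 groups alone, 2 with medians subtracted and 1 to 6 when 1 array was left out. After PHx it called 43, but 26 with the runs as a block, 0 with its 2 groups alone, 14 without PHx Ppara△Hep array 2 and 127 without PHx fl/fl array 3. The causes were not tested. The interaction has no fit on 2 groups alone, and that alternative was not run for it. No paired analysis was possible because the labels give the arrays no shared replicate numbers.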

Other observations

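The genes whose pattern over the 16 arrays was most like that of the 10 acute phase genes, by mean Pearson r among 10143 other genes with a group mean of at least 4, were Mtln (0.572), Pzp (0.561), Hpx (0.555), Gm14989 (0.553) and Gprin3 (0.547). Pzp encodes a plasma protease inhibitor of the alpha-macroglobulin family, and Hpx the haem carrier hemopexin. After sham and PHx their log2 levels in fl/fl livers were 11.42 ± 0.04 and 11.18 ± 0.06 for Pzp and 11.74 ± 0.04 and 11.55 ± 0.17 for Hpx (SD, n = 4). In Ppara△Hep livers they were 11.42 ± 0.04 and 11.23 ± 0.04 for Pzp and 11.82 ± 0.02 and 11.62 ± 0.13 for Hpx. Each of the 5 had a negative r with at least 1 member, down to -0.75, so the mean r is that of a mixed set. All points share the division into sham and PHx arrays, and the likeness is a description with no test.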
